A study of Mus musculus with 18 samples.

Results

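The nuclear genes of the mitochondrial respiratory chain were taken as the 81 of 36757 genes in the count table whose symbols begin with Nduf followed by a, b, c, s or v and a digit, with Uqcr, with Cox4 to Cox8 or with Atp5, together with Sdha, Sdhb, Sdhc and Sdhd. The symbols alone chose them, with no measured value, and 6 further symbols marked as pseudogenes (-ps) were left out. By symbol, 37 belong to complex I (NADH dehydrogenase), 4 to complex II (succinate dehydrogenase), 8 to complex III (cytochrome bc1), 16 to complex IV (cytochrome c oxidase) and 16 to complex V (ATP synthase). Their levels were compared between genotypes within each of 3 models and between the models.

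The respiratory chain sits in the inner mitochondrial membrane. Complexes I and II take electrons from NADH and succinate, complex III passes them to cytochrome c, complex IV hands them to oxygen, and complex V uses the proton gradient built on the way to make ATP. All complexes other than complex II also hold subunits encoded in mitochondrial DNA, and several complex IV subunits exist as pairs of isoforms used in different tissues. In the colon, differentiated colonocytes oxidise butyrate through this chain, whereas stem cells and many tumour cells lean more on glycolysis.

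The transcription factor NRF1 and factors of the ETS family, among them GABP (also called NRF2), are known regulators of these genes, and the stretches that carry their motifs upstream of the transcription start are shown for that reason. Start regions from 250 bases before to 50 bases after the start were taken from RefSeq on GRCm38.p6 (mm10). They matched 65 of the 81 genes by gene identifier or, failing that, by symbol. Among the 16 others are Atp5a1, Atp5f1, Atp5s, Cox4i1, Cox4i2, Cox6a2, Cox6c, Ndufa2, Ndufa4l2, Ndufb9, Ndufs1, Sdhc, Uqcrb, Uqcrc2 and Uqcrq. The letters GCGCATG, the core of the NRF1 motif, searched on both strands and so also read as CATGCGC, were found in 13 of the 65 windows (20%) and in those of 1192 of 27025 genes (4.41%). The ETS motif CCGGAAG, searched on both strands and so also read as CTTCCGG, was found in 16 of the 65 (24.6%) and in 2683 of the 27025 (9.93%). A match is a description of letters and not a test of binding. The NRF1 core, in capitals, is shown in Cox6a1 (the common isoform of a cytochrome c oxidase subunit, chr5:115349086-115349145, minus strand) and Ndufa11 (a membrane subunit of complex I, chr17:56717677-56717736, plus strand), where the matches on both strands overlap and are in capitals together, and in Cox5b (a complex IV subunit, chr1:36691411-36691467, plus strand).
Cox6a1: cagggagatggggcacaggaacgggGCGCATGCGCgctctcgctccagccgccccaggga
Ndufa11: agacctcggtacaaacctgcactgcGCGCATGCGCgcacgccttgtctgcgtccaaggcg
Cox5b: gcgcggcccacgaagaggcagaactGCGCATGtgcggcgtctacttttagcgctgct

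The ETS motif, in capitals, is shown in Sdhd (a membrane anchor of complex II, chr9:50603864-50603920), Uqcr11 (a small subunit of complex III, chr10:80406856-80406912) and Atp5e (the epsilon subunit of ATP synthase, chr2:174464172-174464228), all on the minus strand. The windows of Atp5k, Atp5l, Cox6a1, Ndufb6, Sdhb and Uqcr11 held both motifs. The ETS matches of Sdhb and Atp5k lie after the start.
Sdhd: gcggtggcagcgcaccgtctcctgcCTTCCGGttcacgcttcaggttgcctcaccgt
Uqcr11: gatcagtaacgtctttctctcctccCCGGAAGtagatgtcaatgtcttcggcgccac
Atp5e: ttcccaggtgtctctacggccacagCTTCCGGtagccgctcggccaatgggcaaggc

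RNA was sequenced in 18 libraries, 3 in each of 6 groups. Mice of 6 to 8 weeks, wild type (RNF138fl/fl) or labelled RNF138-/-, drank 2% dextran sulfate sodium (DSS) for 7 days and then water for 14 days in repeated cycles (chronic colitis), or had the same cycles after 10 mg/kg of the carcinogen azoxymethane (colitis-associated cancer, CAC), and organoids were grown in matrigel from tumour-bearing fragments of CAC mice. RNF138 is a RING-type E3 ubiquitin ligase, and the driver of the deletion is not given in the sources used here. All groups carry the DSS treatment, directly or through the mice the organoids came from, and no untreated group was analysed here.

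Libraries held 11514716 to 24390082 counts, with a median of 17332367. The targeted gene, Rnf138, did not pass the test as lower in the libraries labelled RNF138-/- in any model. In colitis it had 15.6, 18 and 25.1 CPM (counts scaled to the library total and TMM-normalized, as all CPM here) in RNF138fl/fl libraries and 19.45, 18 and 19.1 in those labelled RNF138-/-. In CAC it had 27.6, 27.3 and 21.5 CPM against 39.7, 45.35 and 45.8, and in the organoids 37.7, 53.5 and 55.7 against 50.3, 47.8 and 42.8. The values overlapped in colitis and in the organoids, at log2 fold changes of -0.06 and -0.10 (edgeR, adjusted p of 0.963 and 0.668). In CAC Rnf138 was higher in the libraries labelled RNF138-/-, without overlap, by 0.72 on the log2 scale (edgeR, SE 0.14, adjusted p = 0.0426). The genotypes are therefore named below as the labels give them. In the organoids the 4 Y-linked genes tested were listed at 0 in all RNF138fl/fl libraries and were expressed in all libraries labelled RNF138-/-, so sex and genotype cannot be told apart there. Replicate 3 of RNF138fl/fl CAC stood apart, with 14600 summed CPM over 10 colonocyte markers against 2819 and 2382 in the other libraries of its group. Nothing in the labels says that libraries of a group came from separate animals or cultures, so p-values measure the spread between these libraries.

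The members were abundant transcripts. Their median level was 161.9 CPM in RNF138fl/fl colitis, 123.6 in RNF138fl/fl CAC and 97.9 in RNF138fl/fl organoids, and 172.4, 77.2 and 76.1 in the libraries labelled RNF138-/-. Per kilobase of transcript, Cox6a1 was the highest member in RNF138fl/fl colitis (1675 CPM per kb), before Uqcrq (1033), which encodes a complex III subunit, and Atp5b (937), the catalytic beta subunit of ATP synthase. In CAC libraries labelled RNF138-/- the order began with Atp5b (610 CPM per kb), Ndufa4 (394) and Atp5a1 (366), the alpha subunit of ATP synthase. Under 5 CPM on average in RNF138fl/fl colitis were the isoforms Cox4i2, Cox6a2, Cox8b and Ndufa4l2, and in RNF138fl/fl organoids the isoforms Cox6a2, Cox7a1 and Cox8b and the complex I subunit Ndufb2.

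**Figure D1:**
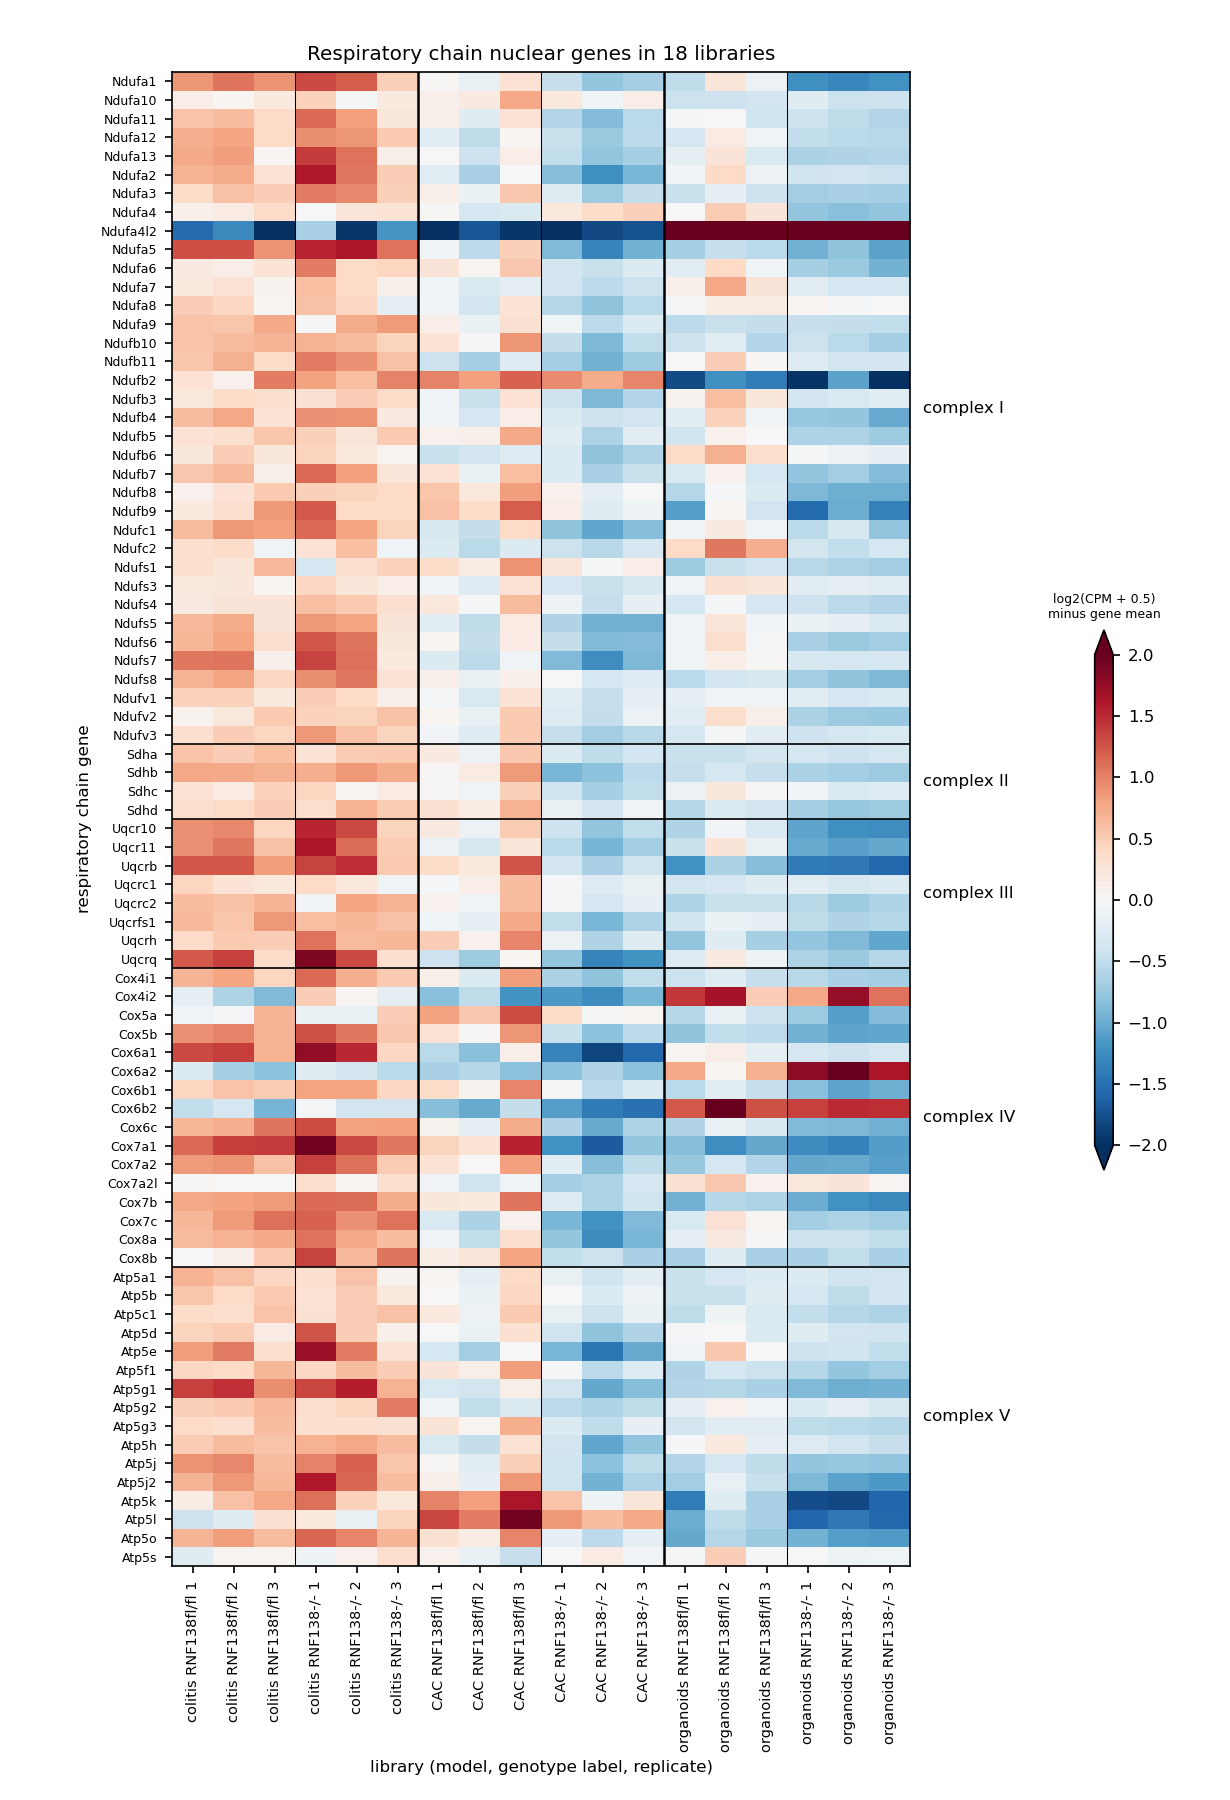
Level of 80 of the 81 respiratory chain genes (vertical axis, ordered by complex) in the 18 libraries (horizontal axis), as log2(CPM + 0.5) minus the gene's mean over all libraries, with red above and blue below that mean. Of all 81, each colitis library has 73 to 76 members above their own mean. Among libraries labelled RNF138-/-, each CAC library has 4 to 9 and each organoid library 5 or 6. Ndufa4l2, Cox4i2, Cox6b2 and Cox6a2 are highest in the organoids.

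Summed over the 81 genes, respiratory chain transcripts were most abundant in colitis and less so in CAC and the organoids. The sum was 19078, 19415 and 17856 CPM in the RNF138fl/fl colitis libraries and 22452, 20813 and 16543 in those labelled RNF138-/-, which overlapped. In CAC it was 12868, 10986 and 17607 CPM in RNF138fl/fl libraries and 10004, 8069 and 9442 in those labelled RNF138-/-. In the organoids it was 9730, 11783 and 10533 CPM against 8913, 8460 and 8441. In CAC and in the organoids every library labelled RNF138-/- lay below every RNF138fl/fl library. In bulk RNA, fewer cells of a type and less RNA per cell cannot be told apart.

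Complex V made the largest sum of the complexes and complex II the smallest in every group. Complex V had 5244 ± 1205 CPM (SD, n = 3) in RNF138fl/fl CAC and 3772 ± 429 in CAC libraries labelled RNF138-/-. Complex IV had 2886 ± 915 and 1537 ± 199 CPM, complex I 3113 ± 617 and 2283 ± 201, and complex III 1591 ± 453 and 973 ± 127. Complex II had 986.5 ± 231 and 608 ± 47.1 CPM. In the organoids, complex I had 2987 ± 391 and 2205 ± 48.95 CPM, and complex II had 645 ± 37.25 and 582.5 ± 21. The sums were not tested.

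**Figure D2:**
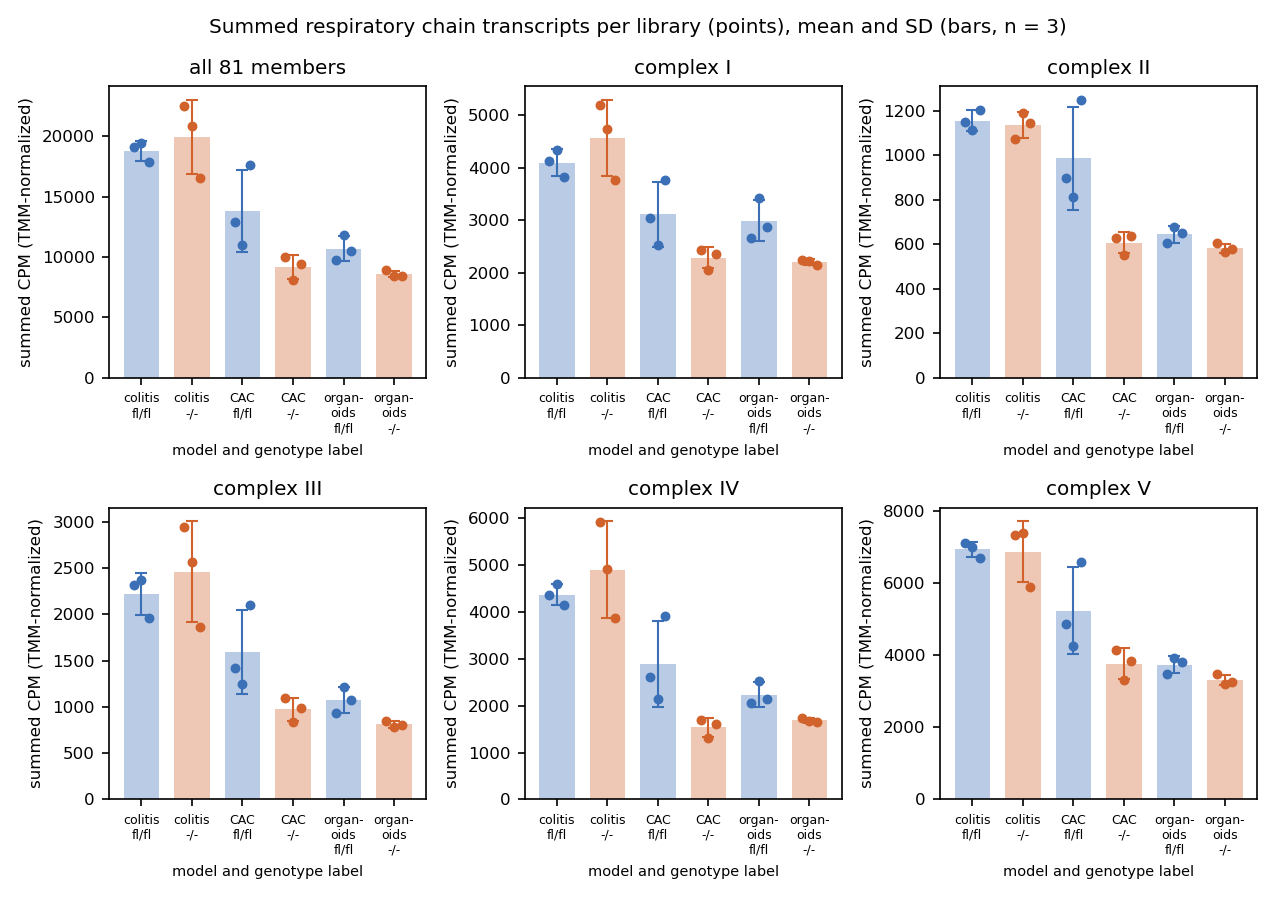
Summed CPM of the respiratory chain genes per library (points) with the group mean and SD (bars and error bars, n = 3), for all 81 members and for each complex, by model and genotype label. In CAC and in the organoids all points of the libraries labelled RNF138-/- lie below those of RNF138fl/fl for the 81 members together.

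In colitis the genotypes differed little. Of 80 members tested (Cox6a2 was too low), 0 rose and 0 fell by edgeR at an adjusted p under 0.05, where 0.018% of all genes tested rose and 0.0722% fell. With no adjustment, 1 member was higher (Cox8b) and 0 were lower at a p under 0.05 (6.08% and 4.33% of all genes tested), and DESeq2 also called 0 (1.43% and 1.19% of all genes tested). The fitted differences were small and mostly positive: 62 members were higher and 18 lower, with a median log2 fold change of 0.14 against 0.02 for all 16623 genes tested. By complex, the median was 0.14 for complex I, -0.03 for complex II, 0.15 for complex III, 0.17 for complex IV and 0.10 for complex V. Groups did not overlap for 5 members that were higher (8.92% of all genes tested), namely Ndufa6, Ndufs4, Uqcrh, Cox7a2l and Cox8b, and for 1 that was lower (8.15%), Atp5g3. These 6 are named after their values were seen.

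The core of complex II was close to level in colitis. Sdhb, its iron-sulfur subunit, had 239.9, 236 and 229.8 CPM in RNF138fl/fl libraries and 232.5, 254 and 234 in those labelled RNF138-/-. The values overlapped. Cox7a1, the heart and muscle isoform of a complex IV subunit, had 21.2, 25.4 and 25.5 CPM against 37.2, 24.2 and 20.0, which also overlapped. Cox8b, a muscle isoform near the limit of detection, had 0.279, 0.337 and 0.619 CPM against 1.5, 0.720 and 1.135. All libraries labelled RNF138-/- were above the others, at a log2 fold change of 1.43 (edgeR, SE 0.49, adjusted p = 0.36).

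In CAC nearly every respiratory chain gene had a lower estimate in the libraries labelled RNF138-/-, and few of these differences passed the test. Of 79 members tested (Cox6a2 and Cox8b were too low), 77 were lower and 2 higher, with a median log2 fold change of -0.72 and a range from -2.22 to 0.49, while the median of all 17752 genes tested was 0.01. At an adjusted p under 0.05, 2 fell and 0 rose by edgeR, where 5.33% of all genes tested fell and 1.05% rose. Groups did not overlap for 60 members that were lower (22.8% of all genes tested) and 1 that was higher (21.4%), Ndufa4. At an adjusted p under 0.1, 48 members were lower (14.7%) and 1 was higher (7.85%), so 47 lay between the thresholds. DESeq2 called 48 lower and 1 higher at 0.05, where it called 14.5% of all genes tested lower and 8.2% higher.

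Replicate 3 of RNF138fl/fl CAC, the library rich in colonocyte markers, was the highest of its group for 71 of the 81 members. Without it the median log2 fold change was -0.49 and 9 members fell by edgeR (6.67% of all genes tested). Without replicate 1 of RNF138fl/fl, or without any of the libraries labelled RNF138-/-, 0 members fell, while 28 to 56 were lower with an unadjusted p below 0.05 (13.7% to 18.2% of all genes tested). In all 6 libraries 58 were lower and 1 higher by that measure (19.7% and 14.1% of all genes tested). In the same libraries, colonocyte markers (10 genes, none at 0) summed to 2382 to 14600 CPM in RNF138fl/fl and 198 to 478 in those labelled RNF138-/-, and 4 of the 9 tested fell. Smooth muscle markers (9 genes, none at 0) summed to 2891 to 9574 CPM against 175 to 334, and all 9 fell. General epithelial markers (9 genes, none at 0) summed to 8374 to 15040 CPM against 7127 to 8533, and 1 fell. Leukocyte markers (13 genes, none at 0) summed to 1849 to 2859 CPM against 714 to 1098, and fat markers (9 genes) to 85.2 to 120.9 against 17.0 to 17.9 with 1 and 2 genes at 0. Neuron markers summed to 22.5 to 56.4 CPM against 7.76 to 12.6 and skeletal muscle markers to 14.8 to 35.0 against 7.21 to 12.3. Fibroblast markers (1231 to 1923 against 1009 to 1851) and endothelial markers (104.9 to 164 against 104.7 to 170.5) overlapped. The part of these cell types in the result was not tested.

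In complex II all 4 members were lower in CAC. Sdhb had 141.7, 156 and 251.5 CPM in RNF138fl/fl libraries and 73.8, 78.6 and 96.65 in those labelled RNF138-/-. The groups did not overlap, and Sdhb fell by 1.2 on the log2 scale (edgeR, SE 0.26, adjusted p = 0.0486). With a covariate of Y-linked genes, which stands for sex, Sdhb had an adjusted p of 0.324 and Cox7a1 of 0.295, so neither member that fell in CAC passed the test, and 17 members were lower at an unadjusted p below 0.05 (9.34% of all genes tested) in place of 58. Sdhb lies at chr4:140961203-140979193 and none of its 50-base windows occurs in another gene. Sdha, the catalytic flavoprotein, had 366, 298 and 474 CPM against 266, 229 and 247, again without overlap. Its log2 fold change was -0.67 (SE 0.21, adjusted p = 0.0883), and those of the membrane anchors Sdhc and Sdhd were -0.74 (adjusted p = 0.0634) and -0.63 (adjusted p = 0.0873). Groups did not overlap for any of the 4.

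In complex IV the median log2 fold change in CAC was -0.97, the lowest of the complexes, and 12 of 14 members were lower without overlap. Cox7a1 (chr7:30184144-30186078) had 12.9, 11.4 and 28.3 CPM in RNF138fl/fl libraries and 3.775, 2.63 and 5.30 in those labelled RNF138-/-. The highest of the latter was below the lowest of the former. Cox7a1 fell by 2.22 on the log2 scale (edgeR, SE 0.45, adjusted p = 0.0441), the largest difference among the members. Its general partner Cox7a2 had 162, 133.5 and 238 CPM against 115.7, 74.6 and 94.3, a log2 fold change of -0.96 (SE 0.27, adjusted p = 0.073). Per length, Cox7a1 made up 11.8%, 12.5% and 16.65% of Cox7a1 and Cox7a2 together in RNF138fl/fl CAC and 5.19%, 5.58% and 8.60% in the libraries labelled RNF138-/-, where the share was lower in every library.

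The general complex IV subunits had estimates in the same direction that did not pass the test. Cox6a1 had 291, 238 and 459 CPM in RNF138fl/fl CAC and 169, 118 and 143 in the libraries labelled RNF138-/-. The groups did not overlap, at a log2 fold change of -1.26 (edgeR, SE 0.29, adjusted p = 0.0526). Cox5b and Cox6c had log2 fold changes of -1.09 (adjusted p = 0.0554) and -1.06 (adjusted p = 0.0659), Cox4i1, the regulatory subunit that binds ATP, -1.0 (adjusted p = 0.0823), and Cox5a -0.84 (adjusted p = 0.0742). Part of the windows of Cox5a (32.0%), Cox5b (25.9%), Cox6c (21.1%), Cox6a1 (12.3%) and Cox4i1 (12.2%) also occur in other genes, so their counts are uncertain.

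In complex I the median log2 fold change in CAC was -0.63, and 24 of 37 members were lower without overlap and 1 was higher. The core subunits spread widely. Ndufs7, which carries the last iron-sulfur cluster before ubiquinone, had 72.1, 60.7 and 81.7 CPM in RNF138fl/fl libraries and 46.9, 36.3 and 46.7 in those labelled RNF138-/-. Without overlap between the groups, the log2 fold change was -0.78 (edgeR, SE 0.17, adjusted p = 0.0506). Ndufv1, which binds NADH, had 133, 110.1 and 163 CPM against 115.2, 98.7 and 120.1, and the values overlapped. Of the other core subunits, Ndufs1, Ndufs3, Ndufs8 and Ndufv2 had log2 fold changes from -0.50 to -0.28 with adjusted p from 0.131 to 0.2305, and 39.7% of the windows of Ndufs3 occur in other genes.

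Ndufa4 was the exception in CAC. It is named as a complex I subunit but is known as a subunit of complex IV. It had 142, 110.2 and 113 CPM in RNF138fl/fl CAC and 162, 179 and 193 in the libraries labelled RNF138-/-. Every labelled library was above every RNF138fl/fl library, at a log2 fold change of 0.49 (edgeR, SE 0.15, adjusted p = 0.08375). Its paralogue Ndufa4l2, a gene induced by hypoxia, had 1.11, 1.65 and 1.33 CPM against 0.851, 1.5 and 1.58, which overlapped.

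In complex III the median log2 fold change in CAC was -0.83, with 7 of 8 members lower without overlap. Uqcrfs1, the Rieske iron-sulfur protein, had 162, 151 and 290.2 CPM in RNF138fl/fl libraries and 123, 91.1 and 112 in those labelled RNF138-/-. Without overlap between the groups, the log2 fold change was -0.95 (edgeR, SE 0.29, adjusted p = 0.0855). The structural core proteins Uqcrc1 and Uqcrc2 had smaller estimates, -0.46 (adjusted p = 0.171) and -0.47 (adjusted p = 0.188), and 24.8% of the windows of Uqcrc2 occur in other genes.

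In complex V the median log2 fold change in CAC was -0.74, with 13 of 16 members lower without overlap. The catalytic subunits were among the least different. Atp5b had 1279, 1164 and 1710 CPM in RNF138fl/fl libraries and 1267, 1053 and 1186 in those labelled RNF138-/-. The values overlapped, at a log2 fold change of -0.30 (edgeR, SE 0.23, adjusted p = 0.376), and that of Atp5a1 was -0.42 (adjusted p = 0.224). The smaller central stalk subunits Atp5d and Atp5e had -0.72 (adjusted p = 0.0645) and -0.85 (adjusted p = 0.0673). Of the genes for the c-ring, Atp5g1 had -0.61 (adjusted p = 0.126), Atp5g2 -0.32 (adjusted p = 0.16) and Atp5g3 -0.75 (adjusted p = 0.0815), and for Atp5g2 and Atp5g1 100% and 66% of the windows occur in other genes.

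**Figure D3:**
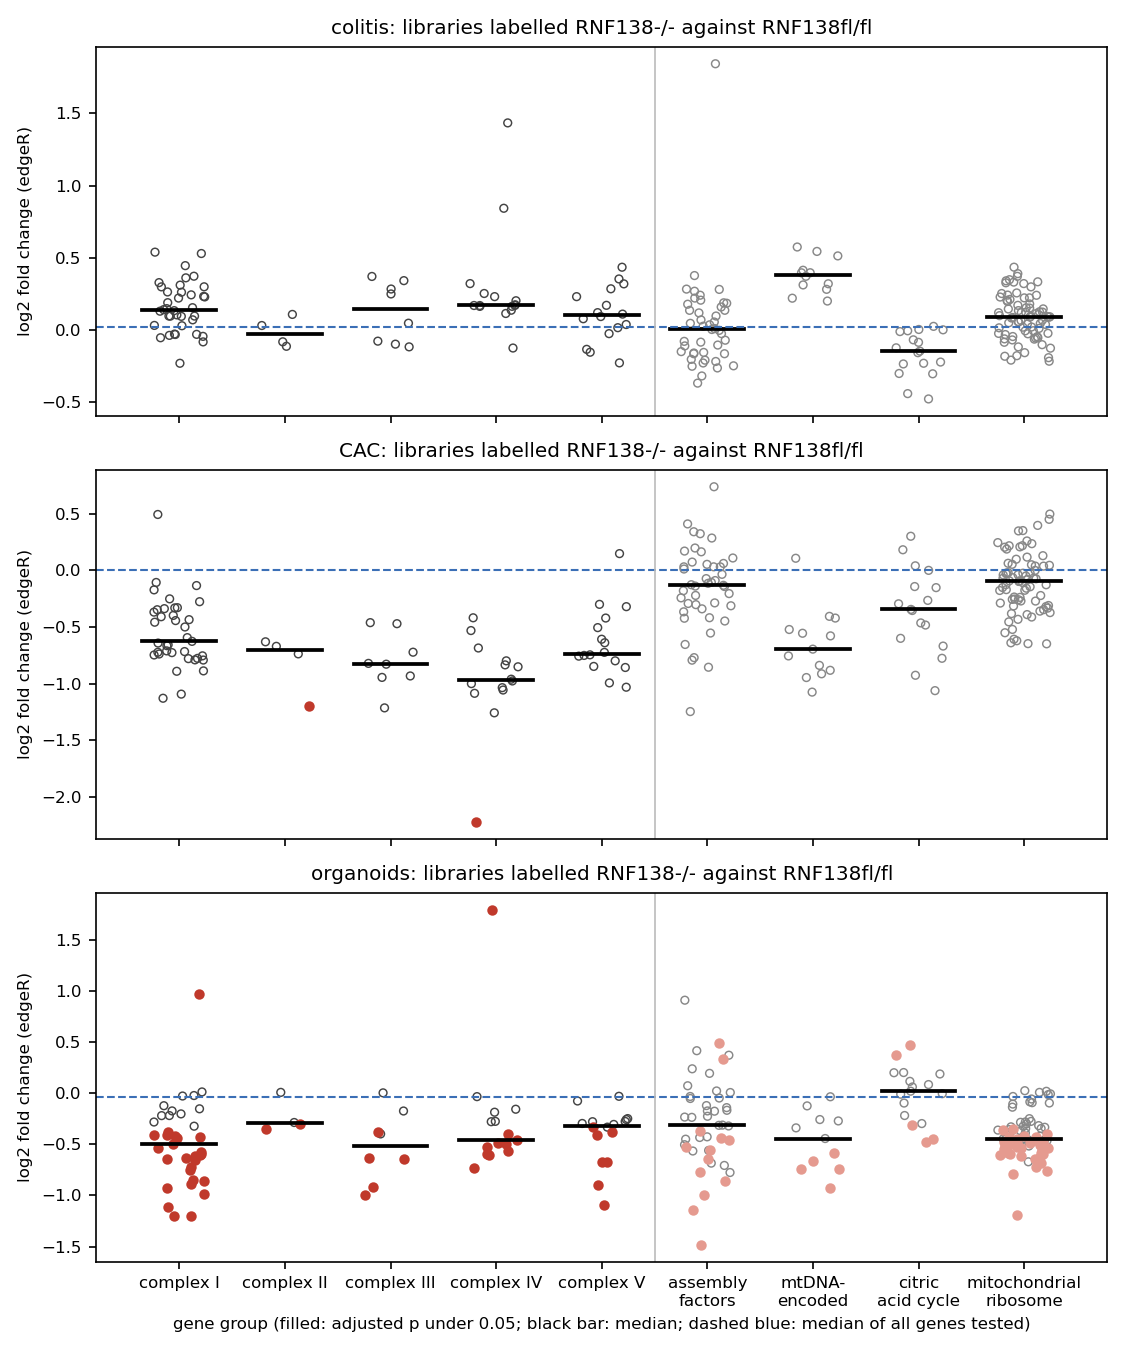
Log2 fold change of each gene (points) between libraries labelled RNF138-/- and RNF138fl/fl in colitis, CAC and organoids, by complex and, right of the grey line, for related gene groups, with black bars at group medians, filled points at an adjusted p under 0.05 (edgeR) and a dashed line at the median of all genes tested. The median over all members is 0.14 in colitis, -0.72 in CAC, where 2 members are filled, and -0.41 in the organoids, where 50 are filled.

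In the organoids the differences were smaller than in CAC with TMM, and more of them passed the test. Scaled without TMM, the members' median was lower in the organoids than in CAC, as given below. Of 80 members tested (Cox8b was too low), 48 fell and 2 rose by edgeR, where 17.7% of all genes tested fell and 17.9% rose. Groups did not overlap for 55 members that were lower (27.8% of all genes tested) and 2 that were higher (25.8%), Ndufa4l2 and Cox6a2. The median log2 fold change was -0.41, against -0.04 for all 15294 genes tested, and 4 of the 48 fell by at least 2-fold (7.04% of all genes tested) and 1 of the 2 rose by as much (7.94%). In complex I, 25 of 37 members fell and 1 rose. In complex II, 2 of 4 fell, in complex III 5 of 8, in complex IV 9 of 15 with 1 that rose, and in complex V 7 of 16. Without replicate 2 of the libraries labelled RNF138-/-, 15 members passed the test, without replicate 3 16, without replicate 1 24, and without replicate 2 of RNF138fl/fl 30, where 17.2%, 18.9%, 21.7% and 22.9% of all genes tested passed.

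The 3 members that fell the most in the organoids belong to complex I by symbol. Ndufa1 (chrX:37187588-37191163), a small membrane subunit, had 52.5, 88.4 and 69.3 CPM in RNF138fl/fl organoids and 31.8, 30.0 and 32.1 in those labelled RNF138-/-. The groups did not overlap, and Ndufa1 fell by 1.2 on the log2 scale (edgeR, SE 0.19, adjusted p = 0.00373). It is X-linked, in a comparison where sex follows the genotype label.

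Ndufc2 (chr7:97400003-97407802), another membrane subunit, had 128.9, 202 and 162 CPM in RNF138fl/fl organoids and 75.7, 69.35 and 76.2 in those labelled RNF138-/-. It fell by 1.2 on the log2 scale without overlap (edgeR, SE 0.17, adjusted p = 0.0027). Ndufa4 (chr6:11900292-11907497), whose estimate was positive in CAC, had 139, 197 and 166 CPM against 81.1, 77.2 and 80.6. It fell by 1.11 on the log2 scale without overlap (SE 0.14, adjusted p = 0.002).

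Ndufa4l2 moved the other way from Ndufa4 in the organoids. It had 78.4, 40.6 and 42.2 CPM in RNF138fl/fl organoids and 87.75, 132.5 and 102.8 in those labelled RNF138-/-. The groups did not overlap, and it rose by a log2 fold change of 0.97 (edgeR, SE 0.26, adjusted p = 0.0237). Per length, it made up 21.4%, 9.07% and 10.9% of Ndufa4 and Ndufa4l2 together in RNF138fl/fl organoids and 34.4%, 45.4% and 38.2% in the libraries labelled RNF138-/-, and at most 1.34% in any tissue library. Cox6a2, a muscle isoform, rose from 0.980, 0.399 and 0.945 CPM to 2.53, 3.65 and 2.24, still under 5 CPM, at a log2 fold change of 1.79 (SE 0.39, adjusted p = 0.011).

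Sdha, Atp5b, Atp5a1 and Uqcrc1, large subunits of complexes II, V and III, had estimates near 0 between the organoid genotypes. Sdha had 237, 239 and 250.3 CPM in RNF138fl/fl organoids and 253, 243 and 254 in those labelled RNF138-/-. The values overlapped, at a log2 fold change of 0.01 (edgeR, SE 0.10, adjusted p = 0.961). Atp5b, Atp5a1 and Uqcrc1 had log2 fold changes of -0.08, -0.03 and 0.00, with adjusted p from 0.676 to 0.987. Some other central subunits fell. Ndufv2, an iron-sulfur subunit of complex I, fell by 0.86 (adjusted p = 0.00572), Atp5e by 0.68 (adjusted p = 0.0181), Uqcrfs1 by 0.38 (adjusted p = 0.0312) and Sdhb by 0.30 (adjusted p = 0.0396).

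The differences in the organoids varied with transcript length, for the members and for all genes tested. The members' main transcripts are short, from 315 bases (Ndufc1) to 3171 (Sdhc) with a median of 727. Members of up to 700 bases had a median log2 fold change of -0.60 in the organoids and those of 1500 to 3000 bases -0.15, and over all genes tested the same classes had -0.46 and -0.07. Spearman's rho between log2 fold change and length was 0.51 over the 80 members and 0.31 over 15282 genes, as a description across genes of the same libraries. With length and GC content modelled, the members' median in the organoids was -0.10, and 12 fell and 2 rose, all of them among the 50 called without it, where 17.1% of all genes tested fell and 16.2% rose.

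In CAC the members' medians lay below those of all genes of like length. Members of up to 700 bases had a median log2 fold change of -0.79, against -0.18 for all genes of that length, and those of 1500 to 3000 bases -0.46 against 0.00. With length and GC content modelled, the members' median in CAC was -0.60. There 0 fell and 1 rose by edgeR (5.85% and 0.987% of all genes tested), Ndufa4 with 0.67 (SE 0.15, adjusted p = 0.0486), and Sdhb and Cox7a1 had adjusted p of 0.0547 and 0.0561.

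The size of the differences depended on the scaling. Without TMM the median of all genes tested was 0.27 between genotypes in CAC and -0.24 in the organoids, and the members' medians were -0.43 and -0.61. Relative to all genes, the members' median was -0.73 in CAC with TMM and -0.70 without, and -0.37 in the organoids with and without.

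**Figure D4:**
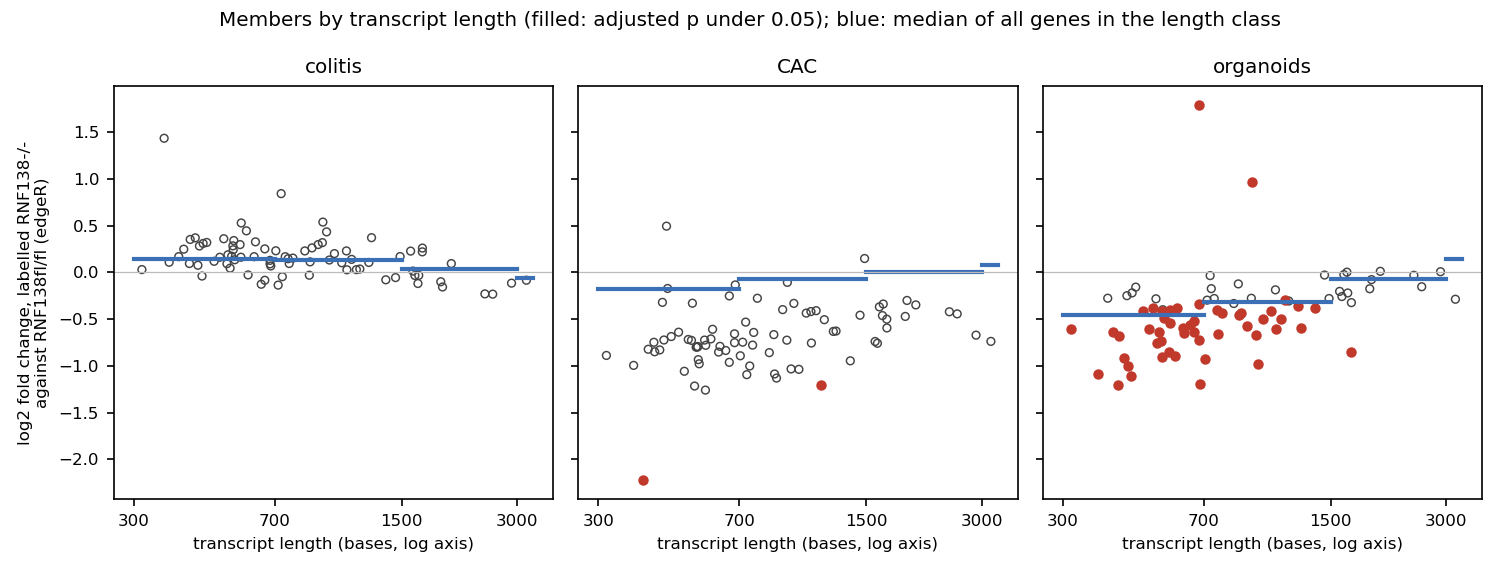
Log2 fold change of each member (points, filled at an adjusted p under 0.05 by edgeR) between libraries labelled RNF138-/- and RNF138fl/fl against the length of its main transcript (bases, log axis) in colitis, CAC and organoids, with blue lines at the median of all genes tested in 4 length classes. In the organoids members of up to 700 bases have a median of -0.60 beside -0.46 for all genes of that length, and in CAC -0.79 beside -0.18.

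Markers of other cell types also differed with the label in the organoids. Fibroblast markers (7 genes, none at 0) summed to 9367 to 23950 CPM in RNF138fl/fl organoids and 41610 to 51260 in those labelled RNF138-/-, and all 7 rose. General epithelial markers (9 genes, none at 0) summed to 10120 to 10910 CPM against 5682 to 8359, and 5 fell. Smooth muscle markers (9 genes, none at 0) summed to 374 to 1647 CPM against 2082 to 2288, and 4 rose. Leukocyte markers (13 genes) summed to 24.4 to 35.1 CPM with 1 gene at 0 against 101.2 to 152.8 with 3 at 0. Colonocyte markers (none at 0) summed to 273 to 637 against 342 to 523, skeletal muscle markers to 33.0 to 57.1 against 38.0 to 38.75 and fat markers to 11.3 to 17.1 against 14.6 to 16.8, all of which overlapped. Neuron markers summed to 20.4 to 24.9 against 9.76 to 11.5 and endothelial markers to 12.8 to 16.7 against 6.51 to 9.78. Their part in the respiratory chain differences was not tested.

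Between colitis and CAC, respiratory chain genes were lower in CAC in both genotypes, and more of them in the libraries labelled RNF138-/-. In RNF138fl/fl tissue, 22 of 81 members fell and 1 rose by edgeR, where 7.55% of all 19390 genes tested fell and 12.3% rose, with a median log2 fold change of -0.38. Groups did not overlap for 29 members that were lower in CAC (16%) and 2 that were higher (18.2%). In tissue labelled RNF138-/-, 71 fell and 0 rose (45 of the 71 by at least 2-fold), where 26.7% fell and 27.9% rose, with a median of -1.19. Of all genes tested 19.6% fell and 17.5% rose by at least 2-fold there. With no adjustment, 72 members were lower and 1 higher at a p under 0.05 (29.2% and 30.9% of all genes tested), and DESeq2 called 71 lower and 0 higher (29.1% and 27.3%). Groups did not overlap for 70 members that were lower (27.4%) and 1 that was higher (31.7%). The comparisons share no library with each other, but each shares its CAC and colitis libraries with the genotype comparisons above. Without replicate 3 of RNF138fl/fl CAC, 41 members passed the test in RNF138fl/fl tissue, without replicate 2 13, and without replicate 2 of RNF138fl/fl colitis 15, where 21.9%, 15.6% and 12.3% of all genes tested passed. With length and GC content modelled 49 fell and 1 rose in RNF138fl/fl tissue (8.94% and 16.3% of all genes tested), and with only the 6 libraries compared 15 members passed (12%).

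Cox6a1 (chr5:115345642-115348981) fell the most between colitis and CAC in both genotypes among members of at least 5 CPM. It had 1065, 1113 and 691 CPM in RNF138fl/fl colitis and 291, 238 and 459 in RNF138fl/fl CAC, without overlap. The log2 fold change was -1.54 (edgeR, SE 0.31, adjusted p = 0.00258). In libraries labelled RNF138-/- it had 1447, 1212 and 565 CPM in colitis and 169, 118 and 143 in CAC, a log2 fold change of -2.91 (SE 0.32, adjusted p = 6.26e-06).

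Uqcrq, a small complex III subunit, had 473, 522 and 261 CPM in RNF138fl/fl colitis and 152, 124 and 207 in RNF138fl/fl CAC. It fell by 1.38 on the log2 scale without overlap (edgeR, SE 0.33, adjusted p = 0.00771), and Atp5g1 fell by 1.44 (SE 0.23, adjusted p = 0.000411). Replicate 3 of each colitis group was the lowest of its group for Cox6a1 and Uqcrq. Atp5l, a membrane subunit of ATP synthase, was the member that rose, from 16.4, 18.4 and 27.25 CPM to 56.4, 45.6 and 85.1, by a log2 fold change of 1.59 (SE 0.24, adjusted p = 0.000318). Of its windows 84.85% occur in other genes, so its counts are uncertain.

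In libraries labelled RNF138-/-, Cox7a1 fell from 37.2, 24.2 and 20.0 CPM in colitis to 3.775, 2.63 and 5.30 in CAC, by a log2 fold change of -2.80 (edgeR, SE 0.35, adjusted p = 1.47e-05). In RNF138fl/fl libraries it had 21.2, 25.4 and 25.5 CPM in colitis and 12.9, 11.4 and 28.3 in CAC, which overlapped. Ndufa5, a complex I accessory subunit, fell from 173, 187 and 128 CPM to 32.4, 23.4 and 30.9, by a log2 fold change of -2.49 (SE 0.23, adjusted p = 1.64e-06). Colonocyte markers also fell, 2 of 10 in RNF138fl/fl tissue (1 rose) and 10 of 10 in tissue labelled RNF138-/-, and smooth muscle markers 0 of 9 and 9 of 9. In tissue labelled RNF138-/-, leukocyte markers summed to 2023 to 3071 CPM in colitis and 714 to 1098 in CAC (4 of 13 rose and 5 fell), neuron and glia markers to 50.4 to 120.6 and 7.76 to 12.6 (6 of 6 fell), and fat markers to 58.1 to 203.9 and 17.0 to 17.9 (6 of 7 tested fell), all without overlap. Skeletal muscle markers there summed to 66.5, 36.8 and 20.1 CPM in colitis and 12.3, 7.21 and 9.96 in CAC (1 of 7 tested rose and 5 fell), and general epithelial markers to 9014 to 12320 and 7127 to 8533 (1 of 9 rose and 3 fell), also without overlap. Fibroblast and endothelial markers overlapped. In RNF138fl/fl tissue the fat markers were the list without overlap, with 34.7 to 49.2 CPM in colitis and 85.2 to 120.9 in CAC (4 of 7 tested rose). Their part in the result was not tested. By complex, the median in these libraries was -1.64 for complex IV, -1.46 for complex III, -1.0 for complex I, -0.98 for complex V and -0.79 for complex II.

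The genotype difference itself differed between CAC and colitis for part of the members, which is also the test of whether the decline from colitis to CAC differed between genotypes. By the interaction in a fit of all 18 libraries, 26 of 81 members had a lower genotype difference in CAC than in colitis and 0 a higher, at an adjusted p under 0.05 (edgeR), where 9.88% of all 19390 genes tested were lower and 4.21% higher. They were 11 of 16 members of complex IV, 9 of 37 of complex I, 3 of 8 of complex III, 2 of 16 of complex V and 1 of 4 of complex II. With no adjustment, 56 were lower and 1 was higher at a p under 0.05 (17.7% and 12.4% of all genes tested), and DESeq2 called 42 lower and 0 higher (13.2% and 5.78%). Cox7a1 had an interaction of -2.33 on the log2 scale (SE 0.47, adjusted p = 0.00555), Atp5j2, the f subunit of ATP synthase, -1.41 (SE 0.38, adjusted p = 0.0221), and Cox6a1 -1.37 (SE 0.43, adjusted p = 0.0436). The count was 6 without replicate 2 of CAC labelled RNF138-/-, 8 without replicate 3 of RNF138fl/fl CAC, 9 without replicate 1 of colitis labelled RNF138-/- and 48 without replicate 2 of RNF138fl/fl CAC, where 7.72%, 7.99%, 9.24% and 17.2% of all genes tested passed. Scaled without TMM the count was 13 (13.9%). Of the colonocyte and smooth muscle markers 8 of 10 and 9 of 9 were lower in the same interaction, as were 6 of 6 neuron and glia, 6 of 7 fat, 4 of 13 leukocyte, 2 of 7 skeletal muscle and 2 of 9 general epithelial markers, and their part in the result was not tested.

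Between the organoids and CAC tissue, members rose and fell in both genotypes, and the 3 that rose most at 5 CPM or more were isoforms. In RNF138fl/fl libraries 10 members rose and 37 fell in the organoids by edgeR, where 27.0% of all genes tested rose and 33.7% fell. In those labelled RNF138-/- 13 rose and 18 fell, where 25.7% rose and 34.2% fell. Scaled by library totals alone, without TMM, 4 rose and 58 fell in the latter (14.7% and 54.1% of all genes tested), where the median of all genes was -0.84 and that of the members -0.73. The members' medians with TMM were -0.44 and -0.11, and those of all genes -0.14 and -0.22. Relative to all genes, the members' median ranged from -0.46 to 0.14 over the settings in RNF138fl/fl libraries, turning sign with length and GC content modelled, and from 0.06 to 0.59 in those labelled RNF138-/-. With that correction 26 rose and 28 fell in the former, where 27.5% of all genes tested rose and 37.2% fell, and 34 rose and 10 fell in the latter, where 26.0% rose and 37.7% fell. Members of up to 700 bases had medians of -0.19 in both genotypes, against -1.23 and -1.61 for all genes of that length, and those of 1500 to 3000 bases -0.53 and -0.28, against -0.09 and -0.21. The CAC libraries also enter the comparisons above. Cell type markers differed widely in the same comparisons. Fibroblast markers rose, 6 of 7 in RNF138fl/fl libraries and 7 of 7 in those labelled RNF138-/-, from sums of 1231 to 1923 and 1009 to 1851 CPM in CAC to 9367 to 23950 and 41610 to 51260 in the organoids. Leukocyte markers fell, 12 of 13 and 13 of 13, from 1849 to 2859 and 714 to 1098 CPM to 24.4 to 35.1 and 101.2 to 152.8. Of 9 smooth muscle markers 8 fell in RNF138fl/fl libraries and 7 rose in those labelled RNF138-/-, where the sum went from 175 to 334 CPM to 2082 to 2288. All 10 colonocyte markers fell in RNF138fl/fl libraries and 5 of 10 in those labelled RNF138-/-. Endothelial markers fell, 4 of 5 in both genotypes, from 104.9 to 164 and 104.7 to 170.5 CPM in CAC to 12.8 to 16.7 and 6.51 to 9.78 in the organoids. Fat markers went from 85.2 to 120.9 CPM to 11.3 to 17.1 in RNF138fl/fl libraries (6 of 7 tested fell) and from 17.0 to 17.9 to 14.6 to 16.8 in those labelled RNF138-/- (1 of 7 rose). Skeletal muscle markers went from 7.21 to 12.3 CPM to 38.0 to 38.75 in the latter, without overlap (3 of 7 tested rose), and overlapped in the former (4 rose and 2 fell). General epithelial and neuron and glia markers overlapped in both genotypes. Their part in the results, the isoforms included, was not tested.

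Ndufa4l2 (chr10:127514967-127517154) rose the most, from 1.11, 1.65 and 1.33 CPM in RNF138fl/fl CAC to 78.4, 40.6 and 42.2 in RNF138fl/fl organoids, a log2 fold change of 5.28 (edgeR, SE 0.42, adjusted p = 1.03e-07). In libraries labelled RNF138-/- its log2 fold change was 6.34 (SE 0.43, adjusted p = 1.77e-08). Cox4i2, an isoform known from lung and induced by hypoxia, rose from 0.985, 1.36 and 0.663 CPM to 6.575, 7.90 and 3.24 in RNF138fl/fl libraries, by 2.51 (SE 0.43, adjusted p = 0.000119). Even so it made at most 3.88% of Cox4i1 and Cox4i2 together, per length, in any organoid library.

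Cox6b2, an isoform known from testis, rose from 4.92, 4.37 and 6.53 CPM in RNF138fl/fl CAC to 22.4, 39.7 and 23.0 in RNF138fl/fl organoids, by a log2 fold change of 2.43 (edgeR, SE 0.26, adjusted p = 1.61e-06). In libraries labelled RNF138-/- it had 4.04, 3.16 and 2.99 CPM in CAC and 24.6, 27.1 and 26.65 in the organoids, a rise of 2.94 (SE 0.26, adjusted p = 2.41e-07). Per length, it made up 16.4%, 21.7% and 16.1% of Cox6b1 and Cox6b2 together in RNF138fl/fl organoids and 20.95%, 25.4% and 24.1% in those labelled RNF138-/-. In tissue the share was between 1.92% and 3.105%.

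Cox7a1 fell from 12.9, 11.4 and 28.3 CPM in RNF138fl/fl CAC to 4.96, 3.67 and 4.385 in RNF138fl/fl organoids, by a log2 fold change of -2.0 (edgeR, SE 0.34, adjusted p = 0.000132). In libraries labelled RNF138-/- it had 3.775, 2.63 and 5.30 CPM in CAC and 3.65, 3.39 and 4.03 in the organoids, which overlapped, at -0.08 (adjusted p = 0.853). Ndufb2 had 7.69, 6.82 and 8.90 CPM in RNF138fl/fl CAC and 0.692, 1.28 and 1.08 in RNF138fl/fl organoids, and fell by 2.94 on the log2 scale (edgeR, SE 0.39, adjusted p = 1.17e-05), and 50.3% of its length overlaps another gene. In the labelled libraries it fell by 3.02. Atp5l fell by 2.23 in RNF138fl/fl and by 2.35 in the labelled libraries, and Atp5k fell by 1.90 in the former and by 2.01 in the latter (SE 0.31, adjusted p = 5.22e-05).

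**Figure D5:**
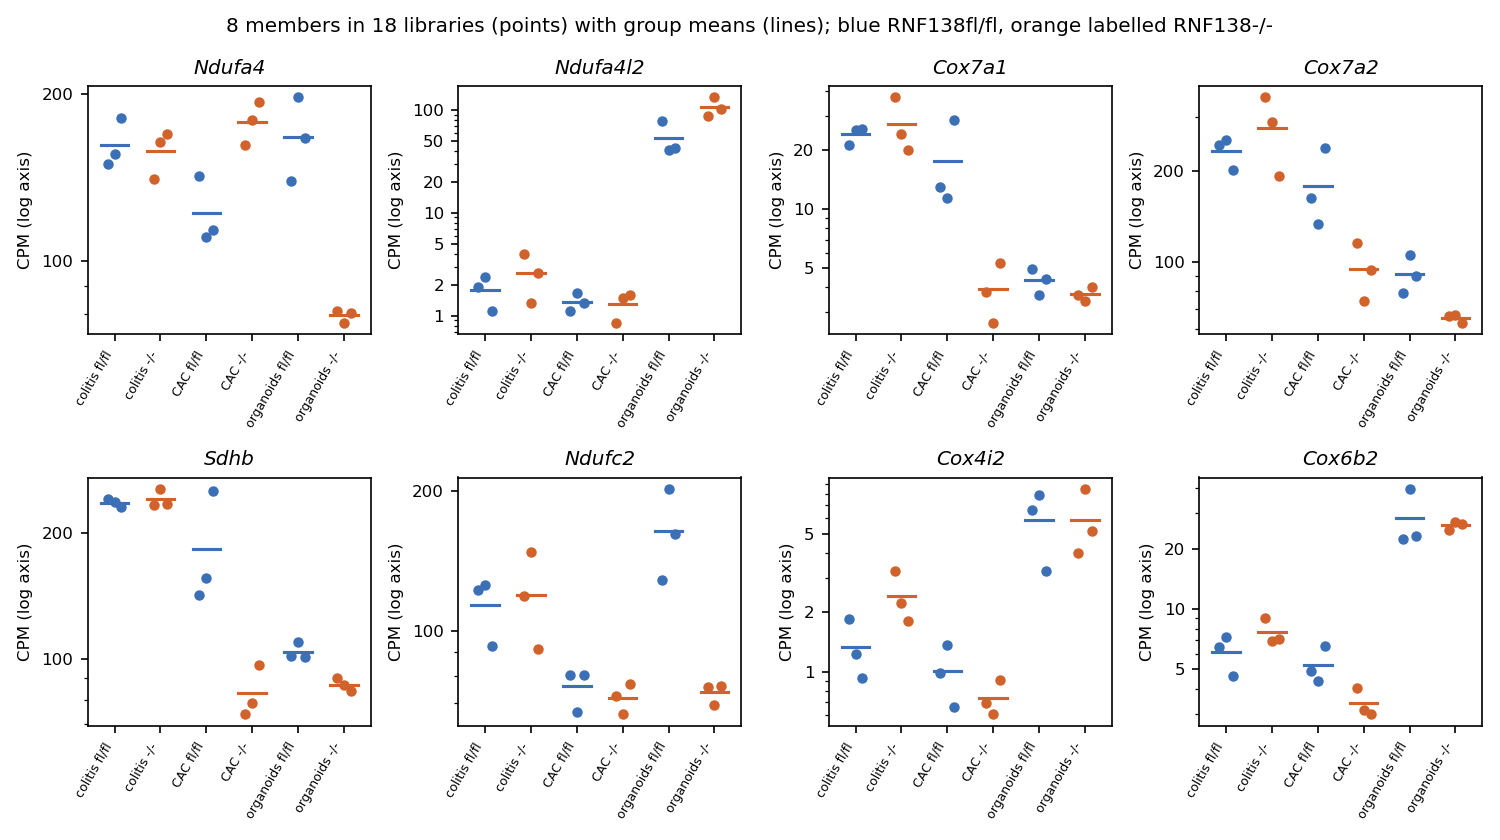
CPM on a log axis of 8 members in the 18 libraries (points) with group means (lines), by model and genotype label, blue for RNF138fl/fl and orange for the libraries labelled RNF138-/-. Ndufa4l2, Cox4i2 and Cox6b2 stand highest in the organoids, Cox7a1 is between 2.63 and 5.30 CPM in CAC libraries labelled RNF138-/- and at least 11.4 in RNF138fl/fl CAC, and Ndufa4 is lower in organoids labelled RNF138-/- than in any other library.

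The genotype difference in the organoids differed from that in CAC for 6 members. By the interaction, 4 were higher and 2 lower in the organoids than in CAC (edgeR, adjusted p under 0.05), where 13.1% of all genes tested were higher and 10.2% lower. Scaled without TMM, 1 was higher and 8 were lower (8.58% and 23.0% of all genes tested). In the same interaction 9 of 9 smooth muscle, 8 of 10 colonocyte, 4 of 7 fibroblast, 3 of 7 fat, 2 of 7 skeletal muscle, 2 of 9 general epithelial, 1 of 6 neuron and glia and 5 of 13 leukocyte markers were higher (1 leukocyte, 1 skeletal muscle and 1 epithelial marker were lower), and their part in the result was not tested. Both interactions use the CAC libraries. Ndufa4 had an interaction of -1.62 on the log2 scale (SE 0.22, adjusted p = 0.000223) and Ndufc2 -1.08 (SE 0.27, adjusted p = 0.00952). Cox7a1 had 1.92 (SE 0.48, adjusted p = 0.0098), Ndufb10 0.90 (SE 0.28, adjusted p = 0.0277), Sdhb 0.88 (SE 0.25, adjusted p = 0.0201) and Sdha 0.66 (SE 0.22, adjusted p = 0.04).

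The 13 subunits encoded in mitochondrial DNA are harder to count, since for 7 of them between 51.1% and 100% of the windows also occur in other genes. They summed to 30010, 27220 and 61990 CPM in RNF138fl/fl CAC and 23350, 20060 and 24290 in CAC labelled RNF138-/-, without overlap, but 0 of 13 passed the test by edgeR (0 higher and 3 lower with an unadjusted p below 0.05, against 14.1% and 19.7% of all genes tested). In the organoids 5 of 11 (45.5%) fell and 0 rose, where 17.7% of all genes tested fell and 17.9% rose, with a median log2 fold change of -0.44. Between colitis and CAC 7 of 13 (53.8%) rose and 0 fell in RNF138fl/fl tissue, where 12.3% of all genes tested rose and 7.55% fell, with a median of 1.42, while the sums overlapped (30460, 30040 and 42760 CPM in colitis) and only replicate 3 of CAC was above all colitis libraries. In tissue labelled RNF138-/- 3 (23.1%) rose and 4 (30.8%) fell, near the 27.9% and 26.7% of all genes tested, with a median of 0.29, and the sums of 43400, 36280 and 54350 CPM in colitis were all above those in CAC. In the organoids against CAC all 13 fell in both genotypes, where 33.7% of all genes tested fell in RNF138fl/fl libraries and 34.2% in those labelled RNF138-/-.

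No gene of the lists that build or serve the chain passed the test between genotypes in tissue, which does not show that they did not differ. Of 44 assembly factors tested, 0 passed in colitis and 0 in CAC by edgeR (with an unadjusted p below 0.05, 1 higher and 0 lower in colitis, 1 higher and 7 lower in CAC, where 6.08% and 4.33% of all genes tested were higher and lower in colitis and 14.1% and 19.7% in CAC), with a median log2 fold change of -0.13 in CAC. In the organoids, where 17.9% of all genes tested rose and 17.7% fell, 2 of the 44 (4.55%) rose and 11 (25%) fell, among them Sdhaf1 and Sdhaf4, which mature succinate dehydrogenase, by 1.48 and 1.14. The 77 genes of the mitochondrial ribosome had a median of -0.10 in CAC, where 0 passed (2 higher and 7 lower with an unadjusted p below 0.05), and -0.44 in the organoids, where 34 (44.2%) fell and 0 rose. Their sums in CAC overlapped, with 2601, 2225 and 2631 CPM in RNF138fl/fl libraries and 2677, 2138 and 2292 in those labelled RNF138-/-. The 17 genes of pyruvate dehydrogenase and the citric acid cycle had medians of -0.34 in CAC, where 0 passed (0 higher and 6 lower with an unadjusted p below 0.05), and 0.02 in the organoids, where 2 (11.8%) rose and 3 (17.6%) fell, a share near that of all genes. Cycs, the electron carrier cytochrome c, had a log2 fold change of -0.91 in CAC (adjusted p = 0.139) and fell by 0.40 in the organoids (adjusted p = 0.0261).

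Among 16 transcriptional regulators of respiration, 0 passed the test between genotypes in colitis (0 higher and 2 lower with an unadjusted p below 0.05, against 6.08% and 4.33% of all genes tested), and 0 in CAC by edgeR (2 higher and 3 lower, against 14.1% and 19.7%). Ppargc1b, a coactivator of mitochondrial genes, had 9.97, 12.2 and 24.6 CPM in RNF138fl/fl CAC and 4.31, 3.16 and 6.34 in CAC labelled RNF138-/-. The groups did not overlap, at a log2 fold change of -1.82 (edgeR, SE 0.44, adjusted p = 0.0562). Between colitis and CAC, 4 of the 16 (25%) fell and 0 rose in RNF138fl/fl tissue, where 7.55% of all genes tested fell and 12.3% rose. There were 4 (25%) that fell and 5 (31.2%) that rose in tissue labelled RNF138-/-, where 26.7% of all genes tested fell and 27.9% rose. Ppargc1b fell by 1.39 and by 2.86 in these comparisons. The 3 others with the largest differences in tissue labelled RNF138-/- were Ppara (-3.18) and Esrra (-1.69), a pair of nuclear receptors that act on oxidative genes, and Hif1a (2.06). The 16 genes summed to 650 to 785 CPM in colitis and 695 to 890 in CAC there, which overlapped.

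In the organoids 1 of 15 regulators tested (6.67%) rose and 4 (26.7%) fell, where 17.9% of all genes tested rose and 17.7% fell. Ppargc1a, the related coactivator, had 58.25, 55.0 and 58.9 CPM in RNF138fl/fl organoids and 30.3, 24.3 and 34.2 in those labelled RNF138-/-, without overlap. It fell by 0.99 on the log2 scale (edgeR, SE 0.14, adjusted p = 0.00274). Tfam, which packages and transcribes mitochondrial DNA, fell by 0.56 (adjusted p = 0.016), and Hif1a rose by 0.44 (adjusted p = 0.0222).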

How the data were processed

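RNA-seq counts per gene for 18 libraries were analysed as deposited by the authors. Per the submitters' processing notes, reads were aligned with STAR 2.6.1d to mm10 and counted with HTSeq 0.11.2, and DESeq2 is also named. The paper's methods instead name Cufflinks. Whether counting used strand is not given in the sources used here. A further table of the authors' own log2 fold changes and p-values, deposited with the counts, was not used.

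The rule for the members reads only gene symbols, but it and the gene lists were chosen with earlier results of these data known. Gene identifiers were matched to GENCODE M21 for length and position (36700 of 36757, 99.84%), and the share of 50-base windows found in other genes was computed for each member. Counts were filtered (filterByExpr), TMM-normalized and tested by the quasi-likelihood test of edgeR 4.0.16 (limma 3.58.1, R 4.3.3), with Benjamini-Hochberg adjustment over all genes tested and a threshold of 0.05. Genotypes were compared within the 6 libraries of a model, models and interactions in a fit of all 18. Named genes were the 3 largest differences per direction past the test whose higher group averaged 5 CPM or more, isoform families, a list of central subunits of each complex, and the 4 largest of each list. An exact permutation test of 3 against 3 cannot go below 0.1 and was not used. The fits were tested on simulated data. Alternatives were RLE factors, CPM without TMM, no filter, DESeq2 1.42.0, a replicate block, a covariate of Y-linked genes, leaving out each library, fitting only the libraries compared and, chosen after seeing the data, a correction for transcript length and GC content. The values of 1 member are not reported here individually.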

Additional observations from a re-analysis of the deposited data

Results flagged for a closer look

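The genotype difference (libraries labelled RNF138-/- against RNF138fl/fl) differed between models for the members below, by an interaction contrast in edgeR over all 18 libraries at an adjusted p under 0.05. All values are interactions on the log2 scale.

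Between CAC and colitis, 26 members had a lower genotype difference in CAC. In complex IV the interaction was -2.33 for Cox7a1, -1.37 for Cox6a1, -1.18 for Cox7b, -1.16 for Cox6c, -1.16 for Cox7a2, -1.15 for Cox5b, -1.11 for Cox4i1, -1.06 for Cox8a, -0.97 for Cox6b1 and -0.92 for Cox7c. Cox8b had -4.77, a fitted value that depends on the prior count, since its CAC libraries labelled RNF138-/- were at or near 0. In complex I it was -1.34 for Ndufa5, -1.26 for Ndufa2, -1.10 for Ndufa6, -1.07 for Ndufb7, -1.02 for Ndufa3, -0.99 for Ndufb10, -0.98 for Ndufa11, -0.91 for Ndufv3 and -0.80 for Ndufs4. In complex III it was -1.22 for Uqcrh, -1.205 for Uqcrb and -1.15 for Uqcr10, in complex V -1.41 for Atp5j2 and -1.03 for Atp5o, and in complex II -1.17 for Sdhb.

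Between the organoids and CAC, 6 members differed. The genotype difference was lower in the organoids for Ndufa4 (-1.62) and Ndufc2 (-1.08), and higher for Cox7a1 (1.92), Ndufb10 (0.90), Sdhb (0.88) and Sdha (0.66). In the organoids sex and genotype cannot be told apart.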

How the results depend on the processing

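Counts are members past the test (edgeR, adjusted p under 0.05, unless named). In CAC 2 members passed between genotypes, and 1 did with RLE factors, 1 without TMM, 15 without a filter on low counts, 49 with DESeq2, 1 with length and GC content modelled and 0 with a covariate of Y-linked genes (17 lower and 0 higher before adjustment). DESeq2 called 14.5% of all genes tested lower there and 8.2% higher. No such shares are given for RLE factors, no TMM and no filter, so those counts cannot be read against all genes. In the organoids 50 passed, and 14 with length and GC content modelled. Between CAC and colitis in RNF138fl/fl tissue 23 passed, 50 with length and GC content modelled and 15 with only the 6 libraries compared. Between organoids and CAC labelled RNF138-/- 31 passed, 62 without TMM and 51 with only the 6 libraries compared, a fit for which no share of all genes tested is given. For the genotype difference in CAC against that in colitis 26 passed, 13 without TMM and 42 with DESeq2. Summed transcripts were 11287 CPM without TMM against 9171.5 in CAC labelled RNF138-/-, and 6899.7 against 8604.8 in such organoids. The causes were not tested beyond what each setting changes.

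Leaving out each library in turn, the count ranged from 0 to 0 between genotypes in colitis, 0 to 9 in CAC and 15 to 53 in the organoids, 13 to 41 and 68 to 71 between CAC and colitis (RNF138fl/fl, then labelled RNF138-/-), 35 to 51 and 23 to 28 between organoids and CAC, 6 to 48 for the genotype difference in CAC against colitis and 4 to 9 for that in organoids against CAC. For part of these fits the share of all genes tested is given above. It is not given for those between organoids and CAC, the interaction included, for colitis genotypes or for CAC against colitis labelled RNF138-/-. Those counts cannot be read against all genes. Of named genes, 39 values lost and 2 gained the call under an alternative, 437 kept it and 0 changed direction. In CAC, Sdhb lost its call in 9 of 13 settings and Cox7a1 in 7.

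Replicate numbers were not taken as pairs, and whether they pair the libraries cannot be settled with 3 libraries a group. Correlations of same-numbered deviations were 0.217, 0.086 and 0.467 for colitis, 0.040, 0.204 and 0.071 for CAC, and -0.193, -0.080 and 0.062 for organoids. Those of differently numbered libraries ran from -0.365 to 0.241 for colitis, -0.140 to 0.047 for CAC and -0.147 to 0.211 for organoids. With the replicate block 0 members passed in the colitis comparison, 8 in that of CAC, 35 in that of organoids, 22 and 70 between CAC and colitis, 47 and 32 between organoids and CAC, and 27 and 6 for the interactions. No share of all genes tested is given for the blocked fits, so these counts cannot be read against all genes.

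Depth limits Cox8b and Cox6a2, which are near 0 in most libraries, and 3 libraries a group limit every test.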
